A study of Mus musculus with 4 samples.

Results

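The response described here is that of mouse bone marrow cells to Pam3Cys4 in the absence of shRNA. Of the 4 libraries in the series, the 2 whose labels give no shRNA were compared. The unstimulated group and the group given 100 nM Pam3Cys4 for 5 h each held 1 mRNA library. Both came from wild-type C57BL/6 mice, and the cells were grown in DMEM with fetal bovine serum and supernatant of L929 cells, a fibroblast line that secretes the macrophage growth factor M-CSF. The other 2 libraries, unstimulated and stimulated in the same way but with shRNA against lncRNA-COX2, entered the TMM scaling of all libraries and give values set side by side at the end. The labels give neither the number, age or sex of the mice nor whether animals were pooled. The letters EV in both titles are not explained, and it is therefore unknown whether the cells carried a control construct.

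Pam3Cys4 is a synthetic lipopeptide that mimics the acylated end of bacterial lipoproteins. It is bound by TLR2 together with TLR1 at the cell surface, and the paired receptor recruits TIRAP, MyD88 and the IRAK kinases, which act through TRAF6 on NF-kB and the MAP kinases. In macrophages this pathway is known for the release of cytokines and chemokines, for antimicrobial enzymes, and for inhibitors that are themselves targets of NF-kB and dampen the signal.

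Levels are in CPM, read counts relative to library totals scaled by TMM. A gene was measured when its higher library reached 5 CPM. It was counted as higher or lower when the ratio, Pam3Cys4 over unstimulated, was at least 2-fold in either direction and its exact 95% counting interval excluded 1. Ranges in parentheses after a fold are such intervals. They cover counting error only, reads without molecular identifiers are not independent molecules, and with 1 library on each side no difference was tested against the spread between cultures. Each list's count and median cover its measured members, with the number listed in parentheses. A gene that passed the level filter in the stimulated library alone had to have a ratio above 1, though not one of 2-fold. These counts and medians therefore describe the lists and test nothing. The libraries held 47385277 gene reads (unstimulated) and 51979051 (Pam3Cys4), which makes counting intervals narrow for all but rare transcripts. The gene targeted by the shRNA was not analysed here.

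Marker transcripts were those of macrophages in both libraries. Of 15 macrophage markers 14 were measured, with a summed level of 7720.0 CPM unstimulated and 10352 CPM after Pam3Cys4. Their median log2 ratio was 0.043, with 7 ratios above 0 and 7 below, and it falls below 0 under some other scalings and filters. Lyz2 (962 and 2675 CPM) and Cd14 (114 and 719.8 CPM) made up much of the higher sum. Adgre1 (F4/80) stood at 349 and 663 CPM, in the order unstimulated and Pam3Cys4 kept throughout, and Csf1r, the M-CSF receptor, at 2594 and 1987 CPM. Of 12 neutrophil markers 2 were measured, Csf3r and Mmp8, while Ly6g, S100a9, Ltf, Ngp, Elane and Retnlg had 0 counts in both libraries. The summed level of the neutrophil list was 4.72 and 24.3 CPM. Cd3e, Cd3d, Cd8a, Ms4a1, Pax5, Cpa3, Mcpt8, Fcer1a, Ms4a2, Col1a2, Col3a1 and Dcn, markers of T cells, B cells, mast cells and fibroblasts, were at 0 counts in both libraries. The B cell list had a summed level of 316 and 162 CPM, nearly all of it Ighm (246 and 89.6 CPM) and Blnk (69.8 and 71.8 CPM). The erythroid and megakaryocyte list summed to 140.0 and 224 CPM, nearly all of it Pf4 (139 and 219.6 CPM). Of 10 dendritic cell markers Itgax was the 1 measured, at 4.72 and 24.8 CPM, and the lists of T and NK cells, mast cells and fibroblasts each summed to at most 7.54 CPM. Hdc, histidine decarboxylase, was the 1 measured of 11 mast cell and basophil markers, at 0.691 and 5.38 CPM, 7.796-fold (5.49 to 11.4) higher, and 9 of the others had 0 counts in both libraries. What part other cell types had in the ratios below was not tested. In bulk RNA, fewer cells of a type and less RNA per cell cannot be told apart.

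Among 9555 measured genes, Pam3Cys4 went with a level at least 2-fold higher for 676 (7.07%) and at least 2-fold lower for 622 (6.51%), while 8257 (86.4%) lay between. These shares are the background for every list count below, and no test compares the directions within a list. The higher side reached much further. At least 4-fold higher were 227 genes (2.38%) against 60 (0.628%) at least 4-fold lower. At least 8-fold higher were 112 (1.17%), at least 10-fold 92 (0.963%) and at least 100-fold 14 (0.147%), against 6 at least 10-fold lower and 0 at least 100-fold lower. When library totals alone set the scale, every log2 ratio is 0.18 lower, and the counts become 541 higher and 898 lower. Of the genes named below, Bcl2l11, Ddit3, Icam1, Mcl1, Myc, Nlrc5, Oas1a, Per1, Ptger4, Sesn2 and Spp1 are then under 2-fold, and C1qa, Ccnd1, Cd180, Cst3, Ly86 and Mrc1 reach it on the lower side. The median log2 ratio over all measured genes was -0.0008 with TMM, and 5% of genes lay below -1.12 and 5% above 1.28. Genes that were higher took 4.06% of gene reads in the unstimulated library and 12.7% after Pam3Cys4, whereas genes that were lower took 4.25% and 1.46%. The 14 genes with ratios of at least 100-fold held 0.00163% and 0.442% of reads.

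**Figure D1:**
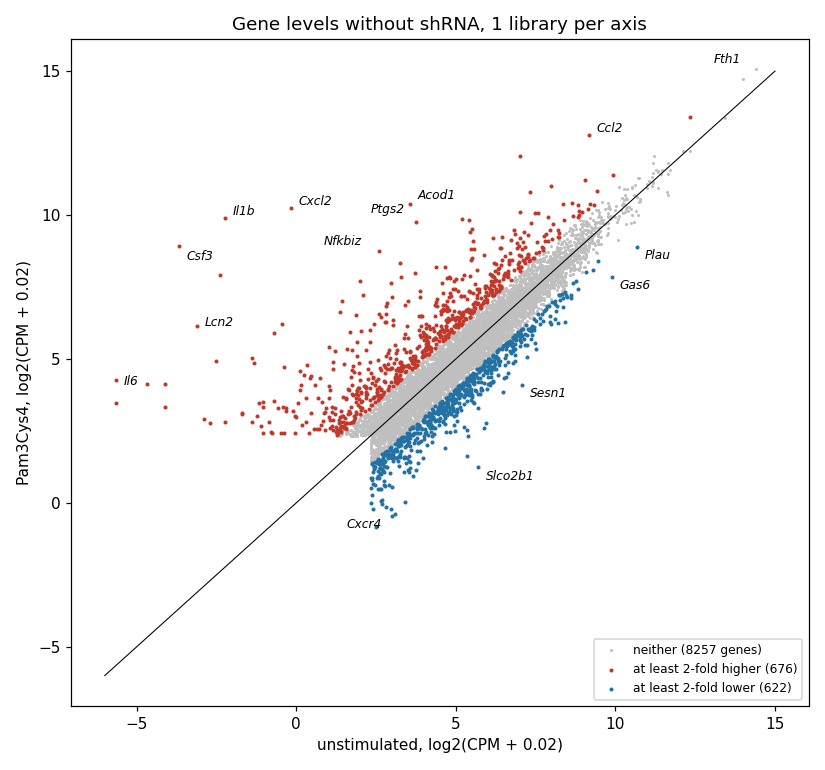
Level of each measured gene in the unstimulated library (horizontal) and after Pam3Cys4 (vertical), as log2 of CPM plus 0.02, with 1 point per gene and a diagonal of equal levels. The 676 genes at least 2-fold higher (red) spread up to Csf3, Il1b and Cxcl2 at low resting levels, whereas the 622 genes at least 2-fold lower (blue) stay closer to the diagonal.

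The 2 largest gains in CPM were in the 2 genes with the highest resting levels. The 15 largest also included Acod1 and Cxcl2, which stood at only 11.9 and 0.863 CPM in the unstimulated library. Fth1, the ferritin heavy chain that stores iron, stood at 21671 and 34327 CPM, a log2 ratio of 0.66, and Actb, cytoplasmic actin, at 16203 and 26878 CPM (log2 0.73). Both ratios were under 2-fold. Next came Ccl2 (578 and 7024 CPM), a monocyte chemoattractant, Spp1 (5164 and 10920.2 CPM), which encodes osteopontin, and Ccl3 (129.9 and 4262 CPM). Hmox1, the haem-degrading enzyme, stood at 529 and 2383 CPM, Ehd1, a membrane recycling ATPase, at 254 and 2079.6 CPM, and Lyz2, lysozyme, at 962 and 2675 CPM. The largest losses in CPM were in Cst3, cystatin C (3217 and 1676 CPM), Lrp1, an endocytic receptor (3122 and 1796 CPM), Plau, urokinase (1621 and 474 CPM), and Gas6, the ligand of TAM receptors (945 and 229.5 CPM). Of these 4, Plau was 3.42-fold (3.37 to 3.47) and Gas6 4.12-fold (4.03 to 4.2) lower, whereas Cst3 and Lrp1 stayed under 2-fold (log2 -0.94 and -0.80).

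**Figure D2:**
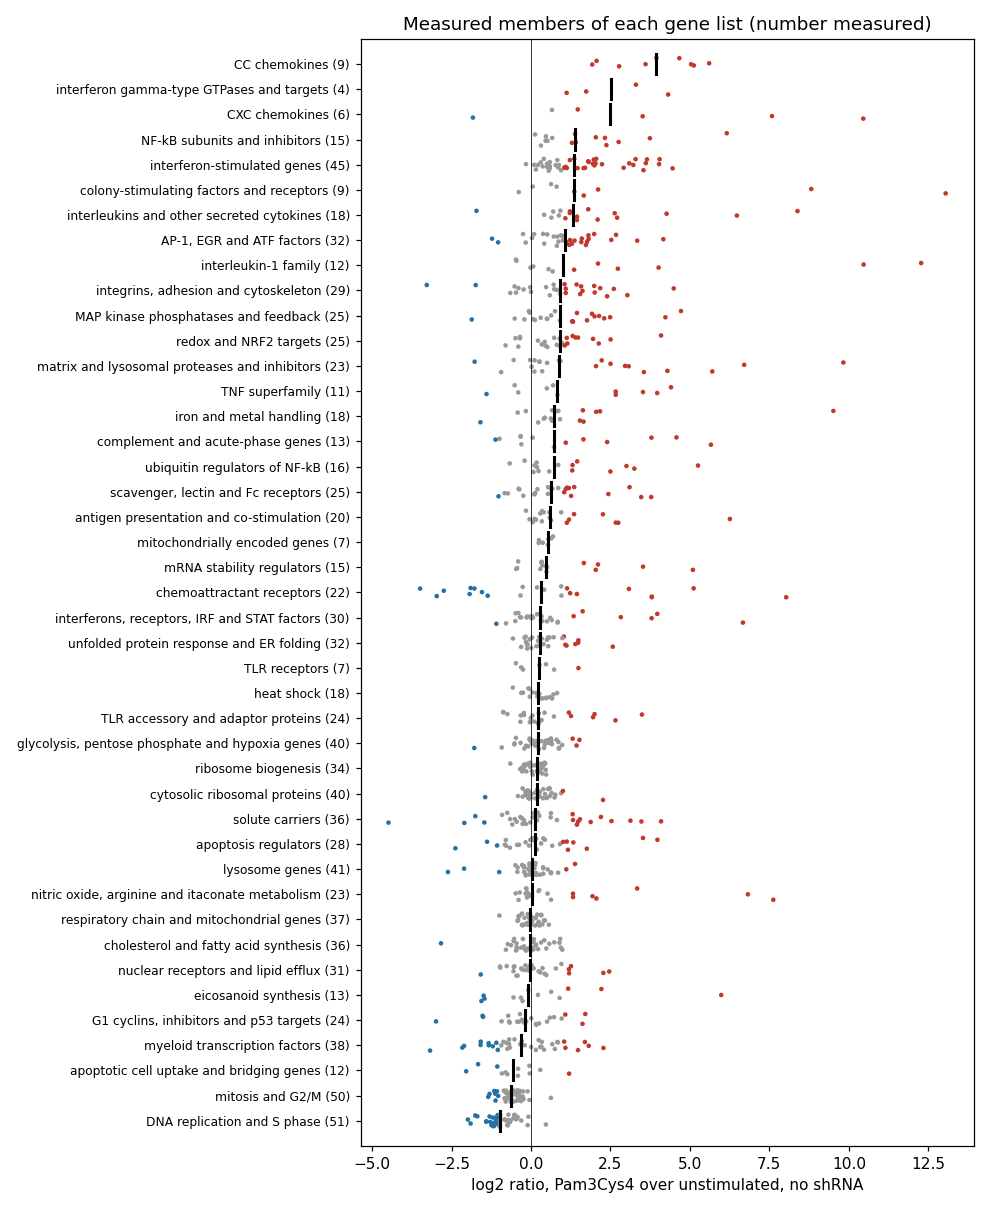
Log2 ratio of Pam3Cys4 over unstimulated for each measured member of 43 gene lists, with red for members at least 2-fold higher, blue for at least 2-fold lower, grey for neither and a black bar for the list's median. CC chemokines have the highest median (3.94) and genes of DNA replication and S phase the lowest (-0.98), and most metabolic and housekeeping lists centre near 0.

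Among the receptors, only that for the ligand itself was higher. Of 7 measured Toll-like receptor genes, 1 reached 2-fold on the higher side and 0 on the lower (12 listed, median log2 0.26). Tlr2 stood at 70.1 and 197 CPM, 2.81-fold (2.71 to 2.92) higher. Its partners Tlr1 and Tlr6 were at 55.96 and 67.2 CPM and at 4.76 and 7.88 CPM, both short of 2-fold. Tlr4, which senses lipopolysaccharide, was at 17.3 and 23.97 CPM, and the endosomal receptors Tlr7, Tlr9 and Tlr13 had log2 ratios of -0.31, -0.25 and -0.48.

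Of 24 measured accessory and adaptor genes, 6 reached 2-fold on the higher side and 0 on the lower (29 listed, median log2 0.23). The core of the pathway was near its resting level, with Myd88 at 138 and 163 CPM, Tirap at 15.3 and 15.8 CPM, Irak4 at 27.9 and 27.7 CPM and Traf6 at 37.3 and 40.1 CPM. The higher members included Irak3, the inhibitory IRAK-M, at 14.7 and 165 CPM, which was 11.2-fold (10.4 to 12.1) higher. Irak2, a kinase of the same complex, stood at 42.2 and 163 CPM. Ticam1, which encodes the adaptor TRIF of TLR3 and TLR4, was at 52.05 and 124 CPM (2.39-fold higher). Map3k8, the kinase TPL2 that links IKK to ERK, was at 3.76 and 15.02 CPM (3.996-fold higher). The lipid and lipopeptide co-receptors Cd14 (114 and 719.8 CPM) and Cd36 (32.2 and 73.5 CPM) completed the group. Cd180 and Ly86, the pair of surface proteins RP105 and MD-1, had log2 ratios of -0.88 and -0.87, below 0 but within 2-fold.

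NF-kB subunits and inhibitors held a larger share of higher members (60%) than all measured genes did (7.07%). Of 15 measured genes, 9 reached 2-fold on the higher side and 0 on the lower (16 listed, median log2 1.39), and all of their log2 ratios were above 0, although that of Ikbkb falls below 0 when library totals alone set the scale. Among the subunits, Nfkb1 (p105/p50) went from 239 to 981 CPM and Nfkb2 (p100/p52) from 90.9 to 237 CPM, 4.11-fold and 2.61-fold higher. Rel and Relb were 2.44-fold and 2.66-fold higher, while Rela (p65) at 107 and 147 CPM stayed within 2-fold. The inhibitor Nfkbia, which holds NF-kB in the cytoplasm and is resynthesised after its own degradation, stood at 164 and 851 CPM, 5.18-fold (5.06 to 5.297) higher. Nfkbiz, the nuclear protein IkB-zeta needed for a set of secondary genes, had the largest ratio of the list at 6.02 and 430.2 CPM. The atypical members Bcl3 and Nfkbid were 13.4-fold and 5.01-fold higher. Among the kinases, Ikbke was at 30.9 and 209 CPM (6.76-fold higher), while Ikbkb, Chuk, Ikbkg and Tbk1 had log2 ratios between 0.13 and 0.52.

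Ubiquitin regulators of this pathway and related genes had 7 of 16 measured members higher and 0 lower (17 listed, median log2 0.71). Not all of the listed genes, Tnfaip2 among them, act on ubiquitin chains. Tnfaip3, the ubiquitin-editing enzyme A20, stood at 14.8 and 141 CPM, 9.52-fold (8.83 to 10.3) higher, and its partner Tnip1 at 82.7 and 467 CPM, 5.64-fold higher. Tnfaip2 was at 45.2 and 362 CPM (8.01-fold higher) and Birc3, the ligase cIAP2, at 34.4 and 85.02 CPM (2.47-fold higher). Cyld, a deubiquitinase that restrains the same pathway, was at 40.5 and 25.4 CPM, a log2 ratio of -0.67. Thus A20 and its partner were higher while Cyld was not.

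Genes that control the stability of cytokine mRNAs had 5 of 15 measured members higher and 0 lower (15 listed, median log2 0.48). Zc3h12a, the endonuclease Regnase-1 that cuts Il6 mRNA, stood at 9.44 and 322 CPM, and its relative Zc3h12c at 23.4 and 101 CPM, 4.31-fold higher. Zfp36, tristetraprolin, which shortens the life of Tnf mRNA, was at 35.4 and 145 CPM, 4.102-fold (3.897 to 4.32) higher. Arid5a, which protects Il6 mRNA, was at 2.19 and 25.1 CPM, 11.5-fold (9.48 to 14.05) higher. The relatives Zfp36l1 and Zfp36l2 had log2 ratios of -0.40 and -0.47, so the family did not move as a block.

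Among AP-1, EGR, ATF and related factors, 16 of 32 measured genes were higher and 2 lower (38 listed, median log2 1.06). Cebpd and Cebpb, which drive acute-phase and myeloid genes, stood at 7.96 and 143 CPM and at 82.4 and 289 CPM, 17.9-fold and 3.51-fold higher. Of the AP-1 subunits, Fosl2 was at 38.1 and 243 CPM, Fosl1 at 3.91 and 22.5 CPM and Junb at 142 and 471 CPM, 6.39-fold, 5.76-fold and 3.31-fold higher. Fos and Jun, which are known to peak within the first hour, were at 15.5 and 16.6 CPM and at 152 and 269 CPM, within 2-fold. Atf3, a repressor of TLR target genes, was at 80.4 and 281 CPM (3.496-fold higher). Klf4 and Egr3 were the lower members, at 10.4 and 4.45 CPM and at 9.17 and 4.47 CPM, 2.34-fold and 2.05-fold lower.

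MAP kinase phosphatases, listed together with other feedback and kinase signalling genes, were divided by member. Of 25 measured genes, 12 reached 2-fold on the higher side and 1 on the lower (30 listed, median log2 0.91). Dusp8, Dusp16 and Dusp5, dual-specificity phosphatases, stood at 0.422 and 11.1 CPM, at 28.2 and 158 CPM and at 26.4 and 130.3 CPM, 26.3-fold, 5.61-fold and 4.93-fold higher. Dusp1, the phosphatase of p38 and JNK known as an early response gene, was at 9.99 and 24.8 CPM (2.48-fold higher), while Dusp6 (228 and 220.4 CPM) and Dusp7 (186 and 178 CPM) were near equal. Gadd45a, a stress sensor upstream of p38, was at 1.15 and 21.6 CPM, 18.7-fold (14.4 to 24.7) higher. Rgs2, which speeds GTP hydrolysis by G proteins, was the lower member at 55.4 and 15.2 CPM, 3.64-fold (3.36 to 3.95) lower.

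Secreted cytokines included the transcripts with the largest ratios of all. Among genes of the interleukin-1 family and of the inflammasome, 6 of 12 measured genes were higher and 0 lower (19 listed, median log2 1.02). Il1b went from 10 to 47990 counts (0.192 and 950.0 CPM) and Il1a from 9 to 12319 counts (0.173 and 244 CPM). Il1rn, the antagonist of the same receptor, stood at 45.3 and 731 CPM, 16.2-fold (15.5 to 16.8) higher. Nlrp3, the sensor that activates caspase-1 to mature IL-1b, was at 59.4 and 394 CPM (6.64-fold higher), while its adaptor Pycard was at 55.7 and 40.1 CPM and Casp1 at 4.43 and 7.11 CPM, both within 2-fold. Casp4, the caspase that senses cytosolic lipopolysaccharide, was at 2.28 and 9.84 CPM (4.31-fold higher). Il18 stayed under the level filter with 62 and 127 counts.

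Among colony-stimulating factors, Csf3 (G-CSF) went from 3 to 24561 counts and Csf2 (GM-CSF) from 2 to 874, and with so few resting counts their folds have wide intervals (log2 13.04 (11.50 to 15.32) and 8.82 (6.96 to 11.86)). Csf1 (M-CSF) was at 2.897 and 12.5 CPM, 4.32-fold (3.61 to 5.19) higher. Of the receptors, Csf2rb, the shared beta chain, was at 80.9 and 208 CPM (2.57-fold higher), Csf2ra at 620.2 and 1083 CPM and Csf1r within 2-fold (log2 -0.38). Of 9 measured members, 5 reached 2-fold on the higher side and 0 on the lower (12 listed, median log2 1.36).

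Among other interleukins and growth factors, 12 of 18 measured genes were higher and 1 lower (40 listed, median log2 1.34). Il6 went from 0 to 971 counts. Set against a floor of 3 counts in the unstimulated library, it was at least 334-fold higher, and its counting interval began at 271-fold. Its relatives Lif and Osm, which share the receptor chain gp130, stood at 0.365 and 32.5 CPM and at 3.17 and 60.9 CPM, 89.1-fold and 19.2-fold higher. Gdf15, a stress-induced member of the TGF-beta family, was at 24.1 and 157 CPM (6.54-fold higher), and Tgfb1 itself at 337 and 918 CPM (2.72-fold higher). Vegfa, the vascular growth factor, was at 42.4 and 98.9 CPM (2.33-fold higher). Several cytokines were read but stayed below the level filter. Il12b had 0 and 113 counts, Il23a 9 and 135 counts, Il27 3 and 119 counts and Il10 2 and 14 counts, whereas Il12a had 0 counts in both libraries. Kitl, stem cell factor, was the lower member at 19.6 and 5.98 CPM, 3.29-fold (2.89 to 3.75) lower.

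In the TNF superfamily, 5 of 11 measured genes were higher and 1 lower (27 listed, median log2 0.83). Tnf stood at 43.2 and 677 CPM. Of its receptors, Tnfrsf1b (TNFR2) was at 42.97 and 910.2 CPM, 21.2-fold (20.3 to 22.1) higher, whereas Tnfrsf1a (TNFR1) was at 80.8 and 131 CPM, within 2-fold. Fas and Cd40, a death receptor and a co-stimulatory receptor, were at 1.496 and 17.2 CPM and at 11.1 and 70.5 CPM, 11.5-fold and 6.34-fold higher. Tnfrsf11a, the receptor RANK that starts osteoclast formation, was at 151 and 57.3 CPM, 2.64-fold (2.53 to 2.75) lower. Hence 2 receptors for the same ligand, TNF, had different ratios in these libraries.

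**Figure D3:**
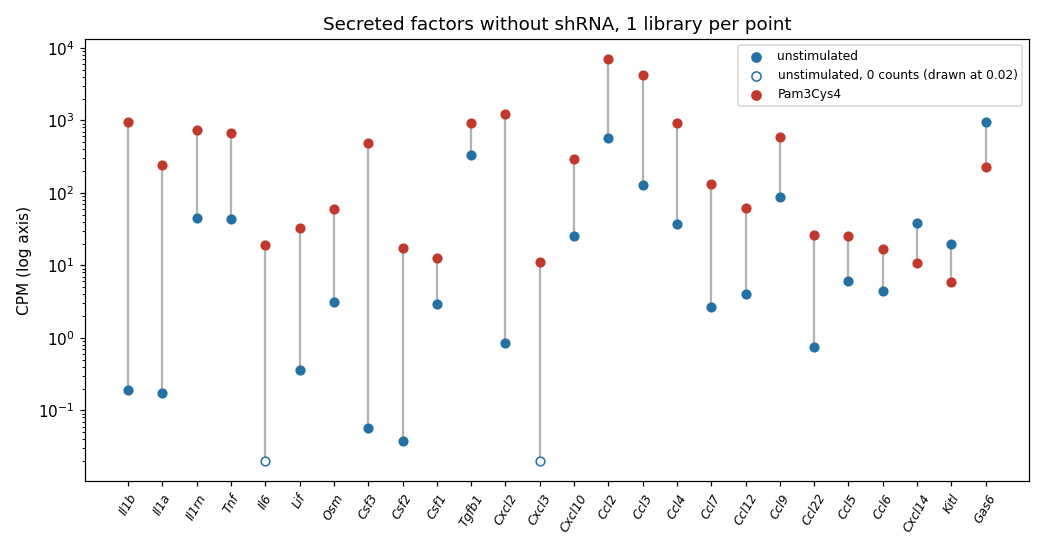
CPM on a log axis of 26 secreted factors in the unstimulated library (blue) and after Pam3Cys4 (red), with open symbols for 0 counts drawn at 0.02 CPM and grey lines joining the libraries. Cxcl14, Kitl and Gas6 are the 3 factors drawn with a lower level after Pam3Cys4, and Ccl2 reaches the highest level of the factors drawn (7024 CPM).

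Chemokines were higher with few exceptions. The 9 measured of 18 listed CC chemokine genes were each at least 2-fold higher, against 7.07% of all measured genes, with a median log2 ratio of 3.94. Over 15 listed genes with no filter on level the median was 2.77, and Ccl7, Ccl12 and Ccl22 passed the filter through the stimulated library alone. Ccl7, Ccl12 and Ccl2, ligands of the monocyte receptor CCR2, stood at 2.69 and 131 CPM, at 4.07 and 62.6 CPM and at 578 and 7024 CPM, 48.7-fold, 15.4-fold and 12.2-fold higher. The inflammatory chemokines Ccl3 and Ccl4 were 32.8-fold (32.02 to 33.6) and 25.4-fold (24.3 to 26.6) higher. Ccl22, a ligand of CCR4 on T cells, was at 0.748 and 26.1 CPM (34.8-fold higher). Ccl5 was at 6.16 and 25.7 CPM (4.18-fold higher), the smallest ratio but for Ccl6 (3.798-fold).

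Of 6 measured CXC chemokines, 4 reached 2-fold on the higher side and 1 on the lower (14 listed, median log2 2.49). Cxcl2, which recruits neutrophils through CXCR2, went from 45 to 61180 counts. Cxcl3, a ligand of the same receptor, went from 0 to 557 counts, at least 192-fold higher against the floor of 3 counts, with a counting interval that began at 155-fold. Cxcl1 had 0 counts in both libraries. Whether its reads could be counted was not tested, so the 0 does not show that the gene was silent. Cxcl10, an interferon-induced ligand of CXCR3, stood at 25.5 and 290.4 CPM, 11.4-fold (10.8 to 12.1) higher, and Cxcl16, a membrane-bound ligand, at 21.8 and 60.3 CPM (2.77-fold higher). Cxcl14 was the lower member at 38.02 and 10.7 CPM, 3.55-fold (3.23 to 3.91) lower. Cxcl9, another CXCR3 ligand, had 0 and 1 counts.

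Promoters of 4 genes that were more than 100-fold higher are shown because each holds a match to the NF-kB site. They are the 250 bases before the start site, from RefSeq on GRCm38.p6, and capitals mark the match.
Cxcl2, chr5:90903649-90903898, + strand: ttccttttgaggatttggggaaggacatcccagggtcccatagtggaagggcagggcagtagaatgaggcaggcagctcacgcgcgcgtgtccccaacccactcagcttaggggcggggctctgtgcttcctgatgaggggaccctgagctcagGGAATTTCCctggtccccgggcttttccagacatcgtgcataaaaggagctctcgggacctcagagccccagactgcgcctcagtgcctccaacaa
Cxcl3, chr5:90785851-90786100, + strand: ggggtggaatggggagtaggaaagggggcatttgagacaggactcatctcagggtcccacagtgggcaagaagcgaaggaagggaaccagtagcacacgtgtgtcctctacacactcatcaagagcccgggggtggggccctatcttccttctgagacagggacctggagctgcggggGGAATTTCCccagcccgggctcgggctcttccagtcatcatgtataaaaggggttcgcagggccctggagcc
Il6, chr5:30012864-30013113, + strand: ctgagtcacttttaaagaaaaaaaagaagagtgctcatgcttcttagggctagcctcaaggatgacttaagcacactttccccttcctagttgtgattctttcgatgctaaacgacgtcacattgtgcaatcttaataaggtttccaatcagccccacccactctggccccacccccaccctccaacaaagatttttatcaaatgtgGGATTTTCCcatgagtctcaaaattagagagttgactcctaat
Acod1, chr14:103046762-103047011, + strand: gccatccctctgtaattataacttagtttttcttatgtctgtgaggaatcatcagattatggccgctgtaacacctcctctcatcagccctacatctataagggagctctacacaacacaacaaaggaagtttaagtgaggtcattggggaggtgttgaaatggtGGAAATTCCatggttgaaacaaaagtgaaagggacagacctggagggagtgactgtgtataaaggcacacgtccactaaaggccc

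The letters searched were GGANTTTCC on both strands, in windows from 250 bases before to 50 after each annotated start. The match began 96 bases before the start in Cxcl2, 72 in Cxcl3, 43 in Il6 and 85 in Acod1. Of 113 windows of genes at least 8-fold higher, 10.6% held a match, and of 23 windows of the 30 top-ranked genes 21.7%, against 1.25% of all 32851 windows and 1.38% of windows of measured genes. The AP-1 letters TGANTCA were in 20.4% of windows of genes at least 8-fold higher, against 7.81% of all windows and 4.85% of those of measured genes. For the C/EBP letters TTGCNNAA these shares were 21.2, 10.8 and 8.35%, and for TATAAA 21.2, 13.6 and 6.42%. In windows of genes at least 4-fold lower the NF-kB and AP-1 letters were in 1.16% and 6.98%. The C/EBP letters and TATAAA were in 15.1% and 6.98% of these windows, so the C/EBP share was above that of measured genes in both sets. A match is a run of letters and does not show that a factor was bound, and genes with several windows were counted with each.

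Receptors for chemoattractants, counted together with receptors for nucleotides, adenosine and metabolites, went both ways. Of 22 measured genes, 8 reached 2-fold on the higher side and 8 on the lower (42 listed, median log2 0.30). On the higher side, Fpr1, the formyl peptide receptor, went from 2 to 506 counts (log2 8.03 (6.17 to 11.08)). Hcar2, a receptor for nicotinic acid and hydroxybutyrate, stood at 4.26 and 148 CPM, 34.7-fold (30.4 to 39.8) higher. Gpr84, a receptor for medium-chain fatty acids, was at 129 and 1089 CPM (8.45-fold higher), and the adenosine receptor Adora2b at 5.35 and 74.5 CPM (13.9-fold higher). On the lower side, Cxcr4, which retains cells in marrow, was at 8 and 0.713 CPM, P2ry12 at 6.96 and 0.891 CPM and P2ry13 at 6.37 and 0.9502 CPM, the last 2 being ADP receptors that were 7.82-fold and 6.703-fold lower. The sphingosine phosphate receptors S1pr1 and S1pr2 were 3.44-fold and 2.57-fold lower, the oxysterol receptor Gpr183 3.73-fold and the C5a decoy receptor C5ar2 3.81-fold. C5ar1, which signals on C5a, had a log2 ratio of 0.95. Ccr2 had 8 and 8 counts, below the level filter.

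Interferon-stimulated genes were higher in part. Of 45 measured genes, 27 reached 2-fold on the higher side and 0 on the lower (60 listed, median log2 1.36). The antiviral Ifit1 stood at 1.25 and 27.3 CPM, Ifit2 at 3.68 and 34.3 CPM, 9.303-fold higher, and Isg15, a ubiquitin-like modifier, at 0.787 and 9.15 CPM, 11.6-fold (8.44 to 16.4) higher. Usp18, which removes ISG15 and blocks the interferon receptor, was at 3.86 and 29.1 CPM (7.54-fold higher). Cmpk2 and Rsad2 (viperin) are neighbours that were 12.2-fold and 16.5-fold higher. The RNA sensors Ifih1, Ddx58 and Dhx58 were 3.25-fold, 3.89-fold and 3.48-fold higher, and Irf7, which amplifies interferon genes, stood at 16.9 and 67.2 CPM (3.98-fold higher). Oas and Ifi200 genes have close relatives, so their counts are uncertain. Others stayed within 2-fold, with Irf9 at 8.88 and 17.1 CPM, Bst2 at 117 and 172 CPM, Adar at 80.5 and 99.5 CPM and Psmb8 at 34.7 and 31.1 CPM. Ifnb1, interferon beta, had 2 and 28 counts and stayed far below the level filter.

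The promoters of Ifit1 and Isg15 are shown because each holds more than 1 match to the interferon response element, as 250 bases before the start from RefSeq on GRCm38.p6 with matches in capitals.
Ifit1, chr19:34640639-34640888, + strand: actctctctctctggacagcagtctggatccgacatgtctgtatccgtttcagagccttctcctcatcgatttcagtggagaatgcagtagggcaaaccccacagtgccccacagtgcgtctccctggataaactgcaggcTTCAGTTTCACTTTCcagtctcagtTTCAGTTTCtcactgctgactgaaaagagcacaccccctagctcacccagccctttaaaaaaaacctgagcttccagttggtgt
Isg15, chr4:156200819-156201068, - strand: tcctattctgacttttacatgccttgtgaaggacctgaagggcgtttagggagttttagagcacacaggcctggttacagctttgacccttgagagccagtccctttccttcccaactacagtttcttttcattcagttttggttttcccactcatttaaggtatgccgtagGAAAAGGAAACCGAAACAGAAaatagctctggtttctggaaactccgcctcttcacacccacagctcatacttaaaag

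The letters GAAANNGAA were searched on both strands, and neighbouring matches could overlap. In Ifit1 matches began 109, 103 and 84 bases before the start, the first 2 overlapping, and in Isg15 78, 72 and 66 bases before it, overlapping in a row. Of 24 windows of interferon-stimulated genes that were at least 2-fold higher, 12 held a match (50.0%), against 8.56% of all windows and 7.15% of those of measured genes.

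Interferon receptors, IRF and STAT factors were mostly near their resting level. Of 30 measured genes, 6 reached 2-fold on the higher side and 1 on the lower (37 listed, median log2 0.30). The higher members were inhibitors and kinases of cytokine signalling with Stat3. Cish stood at 0.595 and 60.5 CPM, Socs3 at 20.9 and 291 CPM and Socs1 at 0.748 and 5.31 CPM, 102-fold, 13.9-fold and 7.09-fold higher. Pim1 and Pim2, survival kinases, were 15.7-fold and 3.08-fold higher, and Stat3, which carries IL-6 and IL-10 signals, was at 138 and 349.8 CPM (2.53-fold higher). Irf5, a factor for Il12 and Il6, was the lower member at 127 and 59.7 CPM, 2.13-fold (2.04 to 2.22) lower. Irf1, Irf3 and Irf8 had log2 ratios of -0.34, 0.014 and 0.33. The 4 measured of 16 listed genes of the interferon gamma type, Gbp2, Gbp7, Irgm1 and Nlrc5, were all higher, with Gbp7 at 0.921 and 9.07 CPM (9.85-fold) and Irgm1 at 5.87 and 19.6 CPM (3.33-fold). Gbp2 and Gbp7 passed the filter through the stimulated library alone, so they could not be lower. The Gbp genes have near-identical copies, and reads that aligned to more than 1 place were left out of the counts.

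Antimicrobial metabolism was higher at a few enzymes. Of 23 measured genes of nitric oxide, arginine and itaconate metabolism and the citric acid cycle, 7 reached 2-fold on the higher side and 0 on the lower (24 listed, median log2 0.029), a median that is -0.15 when library totals alone set the scale. Nos2, the inducible nitric oxide synthase, went from 8 to 1527 counts, and Gch1, which supplies its cofactor tetrahydrobiopterin, stood at 8.08 and 81.7 CPM, 10.1-fold (9.15 to 11.2) higher. Ass1, which regenerates arginine, was at 6.85 and 26.2 CPM (3.82-fold higher) and Slc7a2, an arginine transporter, at 4.01 and 10.02 CPM (2.498-fold higher). Arg1, which competes for arginine, was at 17.6 and 27.2 CPM, within 2-fold. Acod1, which makes itaconate from aconitate, was at 11.9 and 1344 CPM. Of the citric acid cycle genes themselves, Cs (370.2 and 443 CPM), Idh2 (214 and 153 CPM) and Sdha (504 and 384 CPM), stayed within 2-fold. Odc1, the first enzyme of polyamine synthesis, was at 154 and 640.3 CPM (4.16-fold higher).

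Eicosanoid genes split between branches of prostaglandin synthesis. Of 13 measured genes, 3 reached 2-fold on the higher side and 3 on the lower (21 listed, median log2 -0.086). Ptgs2 (COX-2) went from 13.5 to 857 CPM, and Ptges, the inducible synthase of prostaglandin E, stood at 2.76 and 12.8 CPM, 4.64-fold (3.87 to 5.602) higher. Ptger4, a receptor for prostaglandin E, was at 22.04 and 49.6 CPM (2.25-fold higher). The constitutive Ptgs1 (COX-1) was at 73.6 and 24.96 CPM, 2.95-fold (2.77 to 3.15) lower. Hpgds and Tbxas1, the synthases of prostaglandin D and thromboxane, were at 116 and 41.1 CPM and at 39.6 and 14.4 CPM, 2.81-fold and 2.76-fold lower. Alox5ap, needed for leukotrienes, was at 251 and 237 CPM. The inducible cyclooxygenase and E synthase were thus higher while COX-1 and the D and thromboxane synthases were lower.

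Iron and metal genes had 6 of 18 measured members higher and 1 lower (22 listed, median log2 0.73). Lcn2, which binds bacterial siderophores, went from 5 to 3539 counts. The metal transporters Slc11a1 and Slc11a2 were at 132 and 383 CPM and at 68.03 and 211 CPM, 2.91-fold and 3.097-fold higher. Cp and Hp, the plasma proteins ceruloplasmin and haptoglobin, were 4.14-fold and 3.14-fold higher. Slc40a1, the iron exporter ferroportin, was at 26.6 and 23.8 CPM, and Steap3, an endosomal ferrireductase, at 130.1 and 43.2 CPM, 3.01-fold (2.87 to 3.16) lower.

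Redox genes were higher in 10 of 25 measured cases and lower in 0 (28 listed, median log2 0.90). Slc7a11, the cystine importer, stood at 7.23 and 123 CPM, 17.1-fold (15.4 to 18.97) higher. Sod2, the mitochondrial superoxide dismutase, was at 115 and 649.8 CPM (5.67-fold higher), whereas the cytosolic Sod1 was at 198 and 156 CPM. Cybb, the catalytic subunit of the phagocyte oxidase, was at 119.7 and 524 CPM (4.38-fold higher), and its partners Cyba, Ncf1 and Ncf4 had log2 ratios of 0.46, 0.73 and 0.92. Of glutathione genes, Gclm and Gsr were 2.48-fold and 2.79-fold higher, while Gclc was at 135 and 96.2 CPM and Gpx4 at 60.03 and 34.5 CPM.

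Proteases and their inhibitors contained large ratios in matrix metalloproteases and in a serpin. Of 23 measured genes, 10 reached 2-fold on the higher side and 1 on the lower (30 listed, median log2 0.88). Mmp13, a collagenase, stood at 3.97 and 207 CPM, 52.1-fold (45.4 to 60.1) higher, and Mmp12, the macrophage elastase, at 30.4 and 172 CPM, 5.66-fold higher. Mmp3 went from 1 to 880 counts (log2 9.83 (7.34 to 15.13)). Members of the plasminogen system differed in direction. Plaur, the urokinase receptor, was at 46.5 and 544 CPM, and the inhibitor Serpinb2 at 0.7098 and 74.2 CPM, 11.7-fold and 104-fold higher, whereas the protease Plau was lower. Slpi, an elastase inhibitor, was at 44.9 and 349 CPM (7.77-fold higher). The lysosomal cathepsins Ctsb, Ctsd and Ctss had log2 ratios of 0.11, 0.11 and -0.026.

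Complement, coagulation and acute-phase genes had 6 of 13 measured members higher and 1 lower (25 listed, median log2 0.72). F3, tissue factor that starts coagulation, went from 7 to 343 counts, 50.6-fold (24.3 to 127) higher, and Thbd, the anticoagulant thrombomodulin, was at 6.101 and 2.81 CPM, 2.17-fold (1.78 to 2.66) lower. Procr, the endothelial protein C receptor, was at 6.33 and 87.5 CPM (13.8-fold higher). C3, the central complement component, stood at 73.6 and 231 CPM (3.14-fold higher), while C1qa, C1qb and C1qc had log2 ratios of -0.99, -0.33 and -0.30. Saa3, an acute-phase protein, was at 9.73 and 232 CPM.

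Of 25 measured scavenger, lectin and Fc receptor genes, 10 reached 2-fold on the higher side and 1 on the lower (39 listed, median log2 0.61). Msr1, the class A scavenger receptor, stood at 43.4 and 234 CPM, 5.399-fold (5.16 to 5.65) higher. Clec4e (Mincle), which senses mycobacterial glycolipid, and Trem1, which amplifies inflammatory signals, were at 10.5 and 116 CPM and at 2.99 and 41.1 CPM, 11.1-fold and 13.7-fold higher. Fcgr2b, the inhibitory Fc receptor, was at 26.5 and 227 CPM (8.57-fold higher), while the activating Fcgr1 and Fcgr3 had log2 ratios of -0.37 and 0.13. Trem2, a lipid receptor, was the lower member at 230.5 and 113 CPM, 2.03-fold (1.97 to 2.097) lower, and the mannose receptor Mrc1 was at 89.8 and 50.5 CPM.

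Genes for the uptake of apoptotic cells had 1 of 12 measured members higher and 3 lower (18 listed, median log2 -0.58). Gas6, which bridges phosphatidylserine to TAM receptors, and Itgb5, an integrin chain for the bridge Mfge8, were lower, Itgb5 at 248 and 78.03 CPM (3.17-fold). Havcr2 (TIM-3) was at 11.1 and 5.32 CPM (2.09-fold lower). Mertk, the main TAM receptor of macrophages, had 256 and 55 counts, just below the level filter. Under library totals alone, TMM over the 2 libraries and the upper quartile, 13 genes of the list were measured. The list's medians were then -0.92, -0.73 and -0.76. Abca1, a cholesterol exporter, was the higher member at 69.5 and 159.6 CPM (2.295-fold).

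Of 20 measured genes of antigen presentation and co-stimulation, 7 reached 2-fold on the higher side and 0 on the lower (33 listed, median log2 0.58). Cd69, an early activation antigen, stood at 0.384 and 29.3 CPM, 76.5-fold (49.3 to 126) higher. Cd274, the inhibitory ligand PD-L1, was at 3.45 and 23.2 CPM and Cd86, the ligand of CD28, at 10.5 and 26.7 CPM, 6.71-fold and 2.56-fold higher. Cd74, the invariant chain, was at 587 and 1347 CPM (2.29-fold higher), although class II genes such as H2-Ab1 (75 and 102 counts) and H2-Aa (13 and 30 counts) stayed below the level filter. The class I genes H2-K1 and H2-D1 and B2m had log2 ratios of 0.63, 0.29 and 0.58, within 2-fold.

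Adhesion and cytoskeleton genes had 14 of 29 measured members higher and 2 lower (42 listed, median log2 0.91). Among integrins, Itga5, the fibronectin receptor chain, was at 103 and 412 CPM and Itgal at 17.8 and 70.6 CPM, 4.01-fold and 3.97-fold higher, while Itga6, the laminin receptor chain, was at 251 and 75.1 CPM, 3.34-fold (3.22 to 3.46) lower. Marcksl1, an actin-binding membrane protein, was at 177 and 1079 CPM (6.09-fold higher). Cd44, the hyaluronan receptor, and Icam1, the ligand of LFA-1, were 3.07-fold and 2.08-fold higher. Kank2, an adaptor of adhesions, was at 58.5 and 6.02 CPM.

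Lineage factors went both ways. Of 38 measured myeloid and related transcription factors, 6 reached 2-fold on the higher side and 10 on the lower (52 listed, median log2 -0.32), which is 15.8% and 26.3% against 7.07% and 6.51% of all measured genes. Maf, which helps to keep macrophages differentiated and out of cycle, was at 109 and 43.3 CPM, 2.52-fold lower. Cebpa, the granulocyte and monocyte progenitor factor, was at 28.7 and 13.5 CPM (2.13-fold lower), the opposite direction to Cebpb and Cebpd above. Tfeb, a master factor of lysosomal genes, was at 47.2 and 10.97 CPM, 4.31-fold (3.92 to 4.73) lower, and Etv5, an ETS factor, at 148 and 33.2 CPM (4.47-fold lower). On the higher side Ets2 stood at 141 and 683 CPM (4.85-fold), Id1 at 20.8 and 73.01 CPM (3.52-fold), Mxd1 at 8.02 and 25.97 CPM (3.24-fold) and Myc at 17.6 and 36.3 CPM (2.06-fold). Spi1 (PU.1) was at 405 and 718 CPM and Irf8 at 342 and 429.6 CPM, both within 2-fold. The clock-output factors Tef and Nr1d2 were 3.01-fold and 2.99-fold lower, while Per1 was 2.12-fold higher.

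Several of the genes with the firmest lower ratios fall outside the groups above. Slco2b1, an organic anion transporter that belongs to the solute carrier list below, was at 52.3 and 2.34 CPM. Zfp395 was at 40.8 and 3.05 CPM. Dgkg, a diacylglycerol kinase, was at 10.5 and 1.01 CPM, 10.4-fold (7.81 to 14.2) lower, and St6gal1, which adds sialic acid to glycoproteins, at 25.2 and 3.72 CPM, 6.76-fold (5.796 to 7.92) lower. Hdac9, a class IIa histone deacetylase, stood at 51.6 and 9.7 CPM, 5.32-fold lower, and Rasa3, a GTPase-activating protein for Ras and Rap, at 182 and 40.5 CPM, 4.49-fold lower. Lifr, the receptor chain for LIF, was at 14 and 2.57 CPM (5.44-fold lower) while its ligand Lif was higher.

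Nuclear receptor and lipid genes had 5 of 31 measured members higher and 1 lower (40 listed, median log2 -0.045). Ppard, a fatty acid sensor, was at 21.03 and 116 CPM (5.504-fold higher), and the lipid carriers Fabp4 and Plin2 at 3.95 and 19.1 CPM and at 296 and 708 CPM, 4.84-fold and 2.39-fold higher. The LXR gene Nr1h2 was at 119 and 115 CPM and the LXR target Abcg1 at 202 and 197 CPM. Of 36 measured genes of cholesterol and fatty acid synthesis, 0 were higher and 1 lower, the lower being Lpin1, a phosphatidic acid phosphatase, at 40.7 and 5.72 CPM (7.12-fold). Fasn, fatty acid synthase, had a log2 ratio of 0.090.

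Energy metabolism differed little at the transcript level. Of 40 measured genes of glycolysis, the pentose phosphate pathway and hypoxia, 3 reached 2-fold on the higher side and 1 on the lower (46 listed, median log2 0.21). The glucose transporters Slc2a1 and Slc2a6 stood at 451 and 1295 CPM and at 222 and 550.1 CPM, 2.87-fold and 2.48-fold higher, whereas the enzymes Hk2, Pfkp, Ldha and Pkm had log2 ratios of 0.80, 0.52, 0.18 and 0.15. None of 37 measured nuclear genes of the respiratory chain and mitochondria was 2-fold higher or lower (median -0.018), nor was any of 7 measured mitochondrially encoded genes (median 0.53). The other 6 listed mitochondrial genes, mt-Co2, mt-Co3, mt-Atp6, mt-Atp8, mt-Nd3 and mt-Nd4l, had 0 counts in both libraries. Whether their reads could be counted was not tested.

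Solute carriers had 11 of 36 measured members higher and 4 lower (41 listed, median log2 0.12, or -0.057 with library totals alone). Slc15a3, a lysosomal exporter of peptides and muramyl dipeptide, was at 162 and 1798 CPM, 11.1-fold (10.9 to 11.4) higher. The copper transporter Slc31a2 and the phosphate transporter Slc20a1 were at 4.57 and 39.9 CPM and at 129.6 and 595 CPM, 8.74-fold and 4.59-fold higher. Slc37a2, a sugar phosphate exchanger, and Slc43a2, an amino acid transporter, were at 98.3 and 22.9 CPM and at 386 and 139.6 CPM, 4.28-fold and 2.77-fold lower. Slco2b1, given above, had the lowest ratio of the list, 22.4-fold (18.6 to 27.1) lower.

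Many cell cycle transcripts were lower. Of 51 measured genes of replication and S phase, 0 were higher and 22 at least 2-fold lower, against 6.51% of all measured genes, with a median log2 ratio of -0.98. Of 50 genes of mitosis and G2/M, 0 were higher and 7 lower, with a median of -0.62. The difference between these medians was not tested. E2f8 and E2f7, repressors of E2F targets that are themselves E2F targets, stood at 54.1 and 13.6 CPM and at 25.04 and 7.76 CPM, 3.96-fold and 3.23-fold lower. Tk1, thymidine kinase, was at 80.7 and 21.6 CPM, 3.73-fold (3.49 to 3.995) lower. The subunits of the replicative helicase, Mcm2, Mcm3, Mcm4, Mcm5, Mcm6 and Mcm7, had log2 ratios of -1.09, -0.50, -1.25, -1.05, -1.07 and -1.41, in that order. Uhrf1 and Dnmt1, which copy DNA methylation, were 2.47-fold and 2.14-fold lower. Of mitotic genes, Ncapd2, a condensin subunit, was at 288 and 113 CPM and Mybl2 at 115 and 46.4 CPM, 2.54-fold and 2.47-fold lower, while Cdk1 (74.9 and 58.9 CPM) and Mki67 (137 and 92.8 CPM) stayed within 2-fold. Pola2 and Pttg1 were the exceptions with ratios above 0 (log2 0.47 and 0.63).

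**Figure D4:**
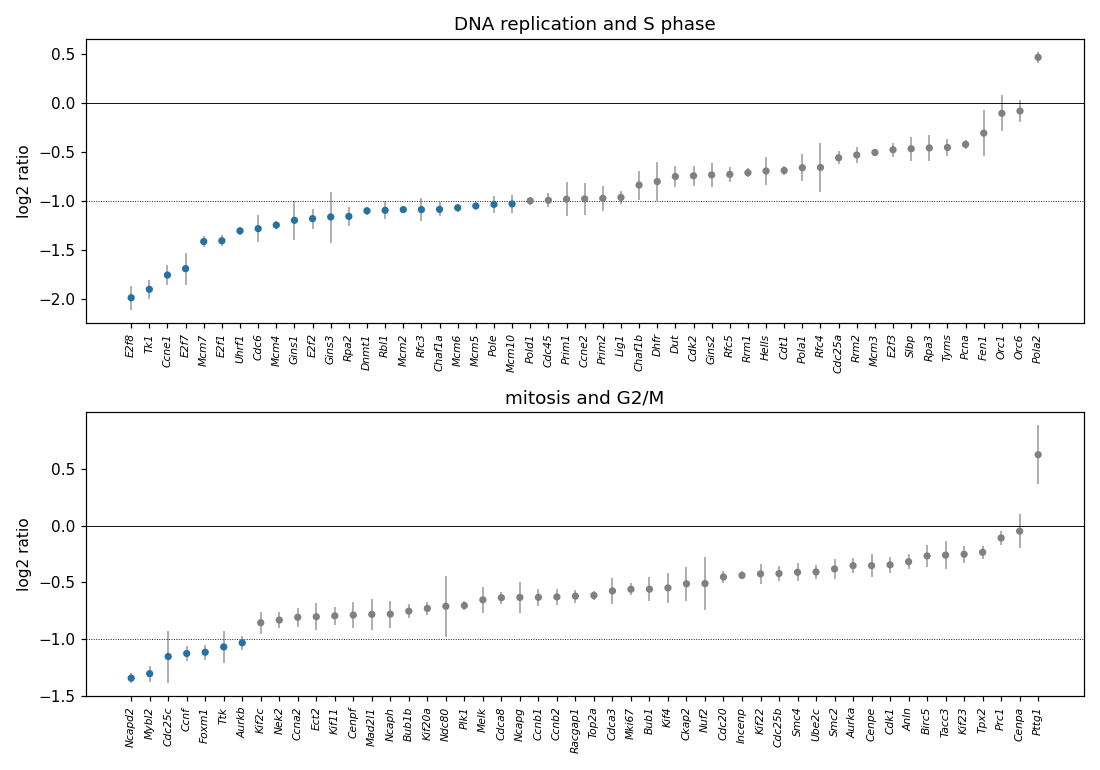
Log2 ratio of Pam3Cys4 over unstimulated for 51 genes of DNA replication and S phase (top) and 50 of mitosis and G2/M (bottom), ordered by ratio, with 95% counting intervals as bars, blue for genes at least 2-fold lower and a dotted line at a 2-fold lower level. All but Pola2 lie below 0 in the top panel and all but Pttg1 in the bottom panel.

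The promoter of Mcm6 is shown for its 2 matches to the E2F letters TTTGGCGC, in capitals, as 250 bases before the start from RefSeq on GRCm38.p6.
Mcm6, chr1:128359706-128359955, - strand: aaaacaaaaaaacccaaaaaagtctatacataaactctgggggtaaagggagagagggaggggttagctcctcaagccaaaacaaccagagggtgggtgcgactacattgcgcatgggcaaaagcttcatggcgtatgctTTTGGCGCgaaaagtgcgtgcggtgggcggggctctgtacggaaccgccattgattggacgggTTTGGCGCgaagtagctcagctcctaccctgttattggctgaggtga

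The matches began 110 and 47 bases before the start, on a search of both strands. Of 53 windows of the replication and S phase list, 8 held such a match (15.1%), against 0.514% of all windows and 1.03% of those of measured genes. Among the 113 windows of genes at least 8-fold higher 0 held one, and likewise 0 of the 86 windows of genes at least 4-fold lower.

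Among G1 regulators and p53 targets, 3 of 24 measured genes were higher and 3 lower (32 listed, median log2 -0.19). Ccnd1, cyclin D1 and a target of M-CSF signalling, was at 1079 and 568 CPM, just short of 2-fold (log2 -0.93). Cdkn1a, the inhibitor p21, was at 387 and 431 CPM. The anti-proliferative Btg1 and Btg2 were 3.08-fold and 3.27-fold higher, and the stress protein Sesn1 was at 135 and 17.04 CPM, 7.93-fold (7.39 to 8.52) lower, whereas its relative Sesn2 was 2.11-fold higher.

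Apoptosis regulators included higher survival genes, with 7 of 28 measured members higher and 3 lower (34 listed, median log2 0.12, or -0.063 with library totals alone). Cflar, which blocks caspase-8, stood at 16.6 and 55.9 CPM (3.37-fold higher), Bcl2l1 (BCL-XL) at 146 and 367 CPM (2.52-fold higher) and Mcl1 at 127 and 283 CPM (2.24-fold higher). Bcl2a1b has near-identical copies, and its 15.7-fold higher value is uncertain. Bmf, a pro-apoptotic protein, was at 5.05 and 0.97 CPM, 5.202-fold lower. The pro-apoptotic Bcl2l11 (BIM) was 2.01-fold higher, so the higher members were not all protective.

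Stress and housekeeping lists differed in how many members lay beyond 2-fold. Of 32 measured genes of the unfolded protein response, 7 reached 2-fold on the higher side and 0 on the lower (32 listed, median log2 0.28), a higher share of 21.9% against 7.07% of all measured genes. The higher ones named here are known as genes of the ATF4 branch or of ER-associated degradation. Chac1 stood at 4.99 and 29.7 CPM, Trib3 at 25.6 and 71.6 CPM, Ddit3 (CHOP) at 18.8 and 38.5 CPM and Herpud1 at 73.6 and 207 CPM, 5.95-fold, 2.797-fold, 2.05-fold and 2.81-fold higher, while the chaperone Hspa5 (BiP) was at 1664 and 2494 CPM and Xbp1 at 112 and 99.5 CPM. None of 18 measured heat shock and none of 34 ribosome biogenesis genes was 2-fold apart, with medians of 0.23 and 0.19. Of 40 ribosomal protein genes, whose many pseudogenes can take reads, 2 were higher and 1 lower. Of 41 lysosome genes, 2 were higher and 3 lower (median 0.044, or -0.13 with library totals alone). Sqstm1, the autophagy receptor p62, was at 692 and 1807 CPM (2.61-fold higher) and Sgsh, a heparan sulfatase, at 37.8 and 6.18 CPM (6.12-fold lower).

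In the pair of libraries with shRNA against lncRNA-COX2, which shares no library with this one, 605 of 9601 measured genes (6.30%) reached 2-fold on the higher side after Pam3Cys4 and 339 (3.53%) on the lower. Below, the log2 ratio without shRNA is followed by that with it and by their difference with a counting interval from the delta method. With 1 library in each of the 4 groups, a difference between pairs cannot be told apart from spread between libraries. Maf stood apart in direction, at -1.33 without shRNA and 1.91 with it, a difference of -3.24 (-3.35 to -3.13). Irf5 was at -1.09 and 0.82, a difference of -1.91 (-1.98 to -1.84). Il1rl1, the receptor for IL-33, was at 1.36 and -1.08, a difference of 2.44 (2.14 to 2.74). Tlr4 was at 0.47 and -0.79, a difference of 1.26 (1.08 to 1.44). Ccnd1 was at -0.93 and 0.22. These 5 genes had opposite signs in the pairs, although Tlr4 and Ccnd1 stayed within 2-fold in both.

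Other named genes had the same sign with unequal sizes. Larger without shRNA were Gadd45a (4.23 and 0.62, difference 3.61 (3.18 to 4.04)), Arid5a (3.52 and 0.49, difference 3.04 (2.69 to 3.38)), Gdf15 (2.71 and 0.47, difference 2.24 (2.15 to 2.34)), Slfn2, of the Schlafen family (4.03 and 1.81, difference 2.22 (2.06 to 2.38)), and Lif (6.48 and 4.21, difference 2.26 (1.32 to 3.21)). Larger with shRNA were Cd40 (2.67 and 5.76, difference -3.09 (-3.30 to -2.88)), Socs3 (3.79 and 6.17, difference -2.37 (-2.55 to -2.19)), Adora2b (3.80 and 6.03, difference -2.24 (-2.68 to -1.80)) and Hp (1.65 and 4.34, difference -2.69 (-3.37 to -2.01)). Among the lists, each over the members measured in its own pair, NF-kB subunits and inhibitors had medians of 1.39 without shRNA and 1.41 with it, and CC chemokines of 3.94 and 4.16. Replication and S phase was at -0.98 and -0.60, and mitosis and G2/M at -0.62 and -0.22. Colony-stimulating factors and receptors were at 1.36 and 0.45, and myeloid transcription factors at -0.32 and 0.28, the latter with 8 members higher and 7 lower with shRNA.

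**Figure D5:**
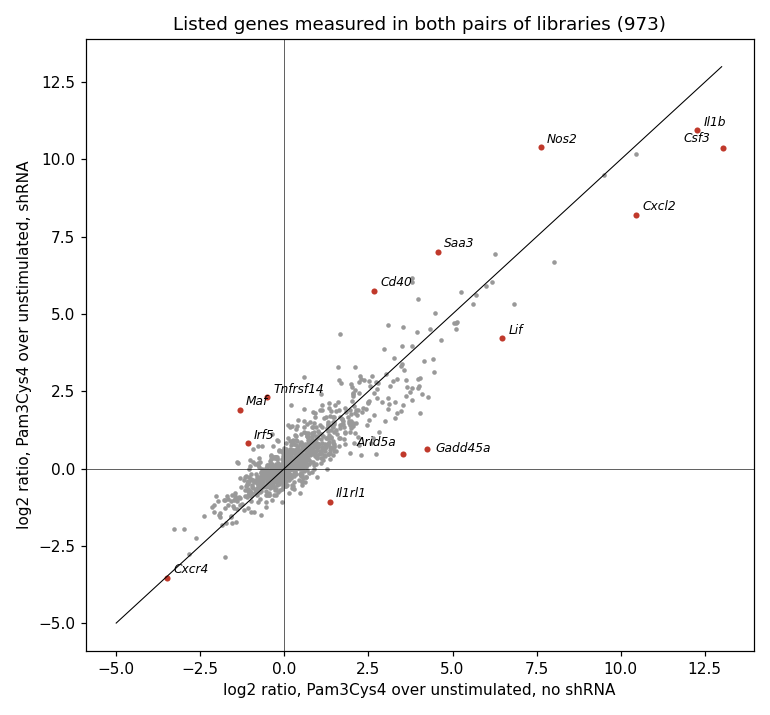
Log2 ratio of Pam3Cys4 over unstimulated without shRNA (horizontal) and with shRNA (vertical) for the 973 listed genes measured in both pairs of libraries, with 1 point per gene, a diagonal of equal ratios and genes labelled in red. Maf, Irf5 and Il1rl1 lie in quadrants of opposite sign, and Gadd45a and Arid5a lie far below the diagonal.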

How the data were processed

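Bone marrow cells were sequenced as mRNA libraries with 50 bp reads on an Illumina system, per the labels' protocols. Per the submitters' processing notes, reads passed through CASAVA 1.8, TopHat and HTSeq on NCBIM37. Which versions of TopHat and HTSeq, which annotation and which strand setting were used is not given in the sources used here, so genes that overlap on opposite strands are uncertain. The deposited values are the authors' read counts per gene. Summary rows that name no gene held 33.5 and 34.4% of table totals and were left out. Most of this was alignments that were not unique, 28.7 and 29.9% of table totals. Library totals were multiplied by TMM factors from edgeR 4.0.16 over the 4 libraries (1.10 and 0.972 for the 2 compared, 1.01 and 0.924 for the others) in R 4.3.3. Intervals are exact conditional binomial (Clopper-Pearson), checked on simulated data, and a count of 0 was replaced by 3 counts for a ratio. No p-value was computed. Some listed genes are not reported here. Symbols were matched for 32642 of 37681 gene IDs. Named genes come from 43 pathway and 8 marker lists, mostly the members with the largest ratios, and from the 30 top-ranked genes in each direction and the largest CPM gains and losses; further list members were picked with their values in view. The comparison and the lists were chosen with earlier results of these data known. Promoters are RefSeq's on GRCm38.p6, a different build from the counts, matched by symbol.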

Additional observations from a re-analysis of the deposited data

Results flagged for a closer look

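Of the genes named, 2 differed in direction between the pairs of libraries by at least 2-fold on each side, and these differences were not tested. Il1rl1, the receptor for IL-33, had a log2 ratio of 1.36 without shRNA, from 912 to 2262 counts, and of -1.08 with it. Maf, a macrophage lineage factor, had a log2 ratio of -1.33 without shRNA, from 5681 to 2186 counts, and of 1.91 with it. With 1 library in each of the 4 groups, shRNA and spread between libraries cannot be told apart.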

How the results depend on the processing

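The counts of 676 genes higher and 622 lower held within 1.5 times under TMM over the 2 libraries alone, DESeq2 size factors, upper-quartile scaling, library totals alone, level filters of 1 and 10 CPM, 0 replaced by 1 count, and a rule that the whole interval lie beyond 2-fold, with 2 exceptions. Without a filter on level they were 1332 and 1242. With a ratio of at least 4 they were 227 and 60. Library totals alone moved the balance to 541 and 898, with all log2 ratios lower by 0.18. Of 44 list medians tried, 6 lists changed sign. With library totals these were -0.15 for nitric oxide, arginine and itaconate metabolism, -0.063 for apoptosis regulators, -0.13 for lysosome genes, -0.057 for solute carriers and -0.20 for macrophage markers. Macrophage markers were also at -0.015 with TMM over the 2 libraries, -0.044 with the upper quartile and -0.026 with a filter of 1 CPM or none, and cholesterol and fatty acid synthesis at 0.0085 without a filter. Medians of short lists moved with the level filter. At 10 CPM they were 1.75 for the TNF superfamily, 1.09 for complement and acute-phase genes and 1.43 for interferon gamma-type genes, and without a filter 0.50, 0.20 and 1.58, with 1.26 for CXC and 2.77 for CC chemokines. With library totals 11 of the 326 measured genes named in the text lost and 6 gained the 2-fold mark, and under the upper quartile Bcl2l11 lost and C1qa gained it, while no named gene beyond 2-fold changed sign. Among named genes within 2-fold, 13 close to 0 changed sign under another scaling, Ikbkb, Irf3 and Tirap among them. No paired analysis was possible because each group has 1 library and the labels carry no replicate numbers. Few resting counts leave wide intervals for genes such as Csf3 and Mmp3, and with 1 library a group the spread between cultures was not measured.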

Other observations

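Genes that were higher after Pam3Cys4 stood next to each other in places. With the measured genes that have coordinates ordered along the chromosomes (8846 genes), there were 11 runs of at least 3 neighbouring measured genes that were all at least 2-fold higher, holding 43 genes, and 5 runs of genes at least 2-fold lower, holding 15. How many runs a random order of the same genes would hold was not computed, so the numbers of runs are description only. The longest run held 6 genes, Ccl5, Ccl9, Ccl6, Ccl3, Ccl4 and Wfdc17. A run of 5 held the metalloprotease genes Mmp13, Mmp12, Mmp3, Mmp10 and Mmp8, and another of 5 held Myo1d, Tmem98, Ccl2, Ccl7 and Ccl12. Ifit2, Ifit3, Ifit1bl1 and Ifit1 formed a run of 4, and Oas2, Oas3 and Oas1a a run of 3. A run of lower genes held Mcm2 between Abtb1 and Tpra1. Gene order was taken from an annotation of another build than the counts, and several runs are families with close copies that can share reads.

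Among genes above the level filter at rest, the shares beyond 2-fold were as follows. Of 2785 genes from 5 to 20 CPM at rest, 185 (6.64%) were higher and 240 (8.62%) lower. Of 4291 genes from 20 to 100 CPM, 222 (5.17%) were higher and 279 (6.502%) lower. Of 2136 genes of at least 100 CPM, 82 (3.84%) were higher and 103 (4.82%) lower. The 42 measured genes under 1 CPM and the 301 from 1 to 5 CPM at rest passed the filter through the stimulated library alone, so none of them could be lower. Of 42 measured lncRNA genes, 8 were counted as higher and 0 as lower, against 7.07% and 6.51% of all measured genes, and their median log2 ratio was -0.030.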
